A study of Mus musculus with 8 samples.

Results

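B cells are lymphocytes that recognise antigen through a surface immunoglobulin, the B cell receptor, and they were followed here by 9 marker genes in lung neutrophil preparations from mice with and without pneumonia. The markers Ms4a1, Cd79a, Cd79b, Pax5, Fcrla, Blk, Cr2, Fcer2a and Cd22 were chosen as a list of genes used to recognise B cells, and each was represented by the array row whose RefSeq accession carried its symbol. All 9 had 1 matched row among the 24625 rows of the array table. Of the 9, 7 were called lower and none higher after infection, beside 22.6% and 21.5% of all rows, while Fcrla and Fcer2a did not pass the test.

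The samples were 4 preparations from wild type mice given Streptococcus pneumoniae (SP) and 4 from wild type mice given the carrier, phosphate-buffered saline (PBS). Either was instilled by the tracheal route to reach the left lung, in a volume of 2.3 µl for each g of mouse, and the lungs were harvested 24 h later from animals labelled as 6 to 12 weeks old. Per the study's methods the mice were C57BL/6J, matched for age and sex, the lung vessels were flushed, the lungs were digested with enzymes, and cells carrying Ly6G, a surface protein of mouse neutrophils, were collected on magnetic beads. The methods describe a purity check by stained cytospins for the pneumonia samples only, and the study describes each array sample as coming from a mouse. In that check the study saw few other cells, mostly like alveolar macrophages and seldom eosinophils. The study also reports abundant Ly6G mRNA in all samples. Each sample was read on 1 Mouse Gene 1.1 ST array as log2 intensity, a scale on which a difference of 1 unit is 2-fold. Array medians were 6.06 to 6.20 in PBS and 5.78 to 5.91 in SP, and the list of 11 neutrophil markers was bright in both groups, averaging 12.36 ± 0.11 for PBS and 12.11 ± 0.51 for SP (SD, n = 4). Because these were bulk preparations, fewer cells of a type and less RNA per cell cannot be told apart.

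As background, the B cell receptor is a membrane immunoglobulin held by the signalling pair CD79A and CD79B. Antigen binding leads kinases of the Src family, among them BLK and LYN, to phosphorylate the tails of this pair, after which SYK, BTK and the adaptor BLNK carry the signal onward. CD22 restrains that signal, complement receptor 2 (Cr2) lowers its threshold, and PAX5 and EBF1 keep B lineage genes switched on. Resting lungs hold B cells in their vessels and tissue. Neutrophils share many of the downstream enzymes but not the receptor itself.

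Windows around transcript starts were taken from RefSeq sequence of the GRCm38.p6 build for the markers that had one, which were 6 of the 9, with 8 windows. The 3 stretches below show upstream DNA of a marker that fell and is part of the receptor, of a second marker that fell, and of the marker with the highest SP minus PBS difference, which did not pass the test. The Cd79a stretch is chr7:24897247-24897496 on the plus strand, the 250 bases before the start. The Cd22 stretch is 30 bases at chr7:30879058-30879087 on the minus strand, and that of Fcer2a is the 250 bases before its most upstream listed start, chr8:3694175-3694424 on the minus strand. Capitals mark matches, on either strand, to the PU.1 core GAGGAA in Cd79a and to the EBF core CCCNNGGG in Cd22.
Cd79a: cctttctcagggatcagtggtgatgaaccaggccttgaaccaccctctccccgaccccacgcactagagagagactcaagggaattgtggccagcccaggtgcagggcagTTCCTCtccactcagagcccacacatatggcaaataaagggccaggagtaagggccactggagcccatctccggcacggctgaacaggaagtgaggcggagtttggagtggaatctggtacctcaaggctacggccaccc
Cd22: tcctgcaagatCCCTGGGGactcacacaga
Fcer2a: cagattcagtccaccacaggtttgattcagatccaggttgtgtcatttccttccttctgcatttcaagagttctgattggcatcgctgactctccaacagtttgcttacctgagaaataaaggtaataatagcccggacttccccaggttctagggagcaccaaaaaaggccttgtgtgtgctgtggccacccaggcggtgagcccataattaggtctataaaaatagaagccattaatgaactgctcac

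Of the motifs searched, the EBF core was found in the Cd22 window alone and the PU.1 core in the windows of Cd79a and Fcrla. Among all 32851 windows of 300 bases, 13.7% held the EBF core and 28.3% the PU.1 core. The octamer ATTTGCAT, present in 1.74% of all windows, and the STAT motif TTCNNNGAA, present in 8.3%, were in none of the 8 windows. The motifs do not overlap each other in these windows. A match, or its absence, describes the letters of these stretches and nothing more.

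The signalling pair of the receptor was compared first. Cd79a read 9.71, 8.61, 8.62 and 9.17 in the PBS samples and 7.66, 8.09, 6.39 and 6.92 in the SP samples (NM_007655). All SP values lay below all PBS values. Cd79a fell 3.39-fold, a log2 difference of -1.76 (standard error 0.39, adjusted p = 0.00766 by limma). Its partner Cd79b read 10.02, 8.99, 9.23 and 9.45 in PBS and 8.17, 8.60, 7.05 and 7.35 in SP (NM_008339). The groups did not overlap, and Cd79b fell 3.09-fold (-1.63, standard error 0.36, adjusted p = 0.00743 by limma). In both genes PBS replicate 1 was the highest PBS sample, SP replicate 2 the highest SP sample and SP replicate 3 the lowest.

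Surface receptors of B cells came next. Ms4a1 encodes CD20, a membrane protein found almost solely on B cells, and had the largest fall of the 9 markers. It read 9.50, 8.52, 8.36 and 8.57 in PBS and 6.84, 7.54, 6.11 and 5.84 in SP (NM_007641). The lowest PBS sample was above the highest SP sample, and the fall was 4.45-fold (-2.15, standard error 0.40, adjusted p = 0.00296 by limma). Its 95% confidence interval, from -3.06 to -1.25, was the only one of the 9 that lay wholly beyond a 2-fold fall. Cd22, the inhibitory lectin receptor, read 8.07, 7.68, 7.29 and 7.49 in PBS and 6.59, 7.01, 6.09 and 6.03 in SP (NM_001043317). Again no SP value reached the PBS values, and the fall was 2.30-fold (-1.20, adjusted p = 0.00527 by limma).

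Cr2, the receptor for complement fragments on mature B cells and follicular dendritic cells, showed the smallest called difference. It read 5.80, 5.63, 5.19 and 5.14 in PBS and 4.77, 4.77, 4.88 and 4.74 in SP (NM_007758). The groups were apart and the difference was -0.65, a 1.57-fold fall (adjusted p = 0.00947 by limma), below 2-fold. The SP values lay within the range of 3 Y-linked rows, 4.33 to 4.90, which were low on all 8 arrays and served as a reference for background.

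The kinase and the transcription factor among the markers were both lower. Blk, a kinase of the Src family most abundant in B cells, read 6.41, 6.17, 5.76 and 5.68 in PBS and 4.94, 4.94, 4.80 and 4.79 in SP (NM_007549). SP samples were close together at about the background level, below every PBS sample, and the fall was 2.20-fold (-1.14, standard error 0.16, adjusted p = 0.000786 by limma). Pax5, the factor that commits cells to the B lineage, read 7.27, 6.86, 6.45 and 6.79 in PBS and 5.56, 5.83, 5.09 and 4.96 in SP (NM_008782). Groups did not overlap, and Pax5 fell 2.79-fold (-1.48, standard error 0.23, adjusted p = 0.00132 by limma).

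The remaining markers, Fcrla and Fcer2a, did not pass the test. Fcrla encodes an intracellular Fc receptor-like protein that binds immunoglobulin in B cells. It read 7.66, 6.42, 7.21 and 7.20 in PBS and 7.44, 8.03, 6.69 and 7.34 in SP (NM_001160215). The groups overlapped, and the difference was 0.25 (95% confidence interval -0.49 to 1.0, adjusted p = 0.521 by limma). Fcer2a encodes CD23, the low-affinity receptor for IgE, present on mature B cells and on some activated myeloid cells. It read 7.81, 6.97, 7.04 and 7.20 in PBS and 8.57, 7.75, 7.31 and 8.66 in SP (NM_001253737). PBS replicate 1 exceeded the lowest 2 SP samples, and the difference was 0.82, or 1.76-fold (interval 0.07 to 1.56, adjusted p = 0.0719 by limma).

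With limma treat set aside, Fcer2a was the one marker of the 9 whose call changed with the processing. It was called higher in SP under 5 of 16 alternatives. These included centring of arrays on their median (1.10, adjusted p = 0.00902), weighting of arrays (1.0, 0.0102), omission of SP replicate 3 (1.07, 0.0189) and quantile normalization (1.18, 0.00806). Over all its alternatives the difference was 0.62 to 1.18 and the adjusted p 0.00806 to 0.165.

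**Figure D1:**
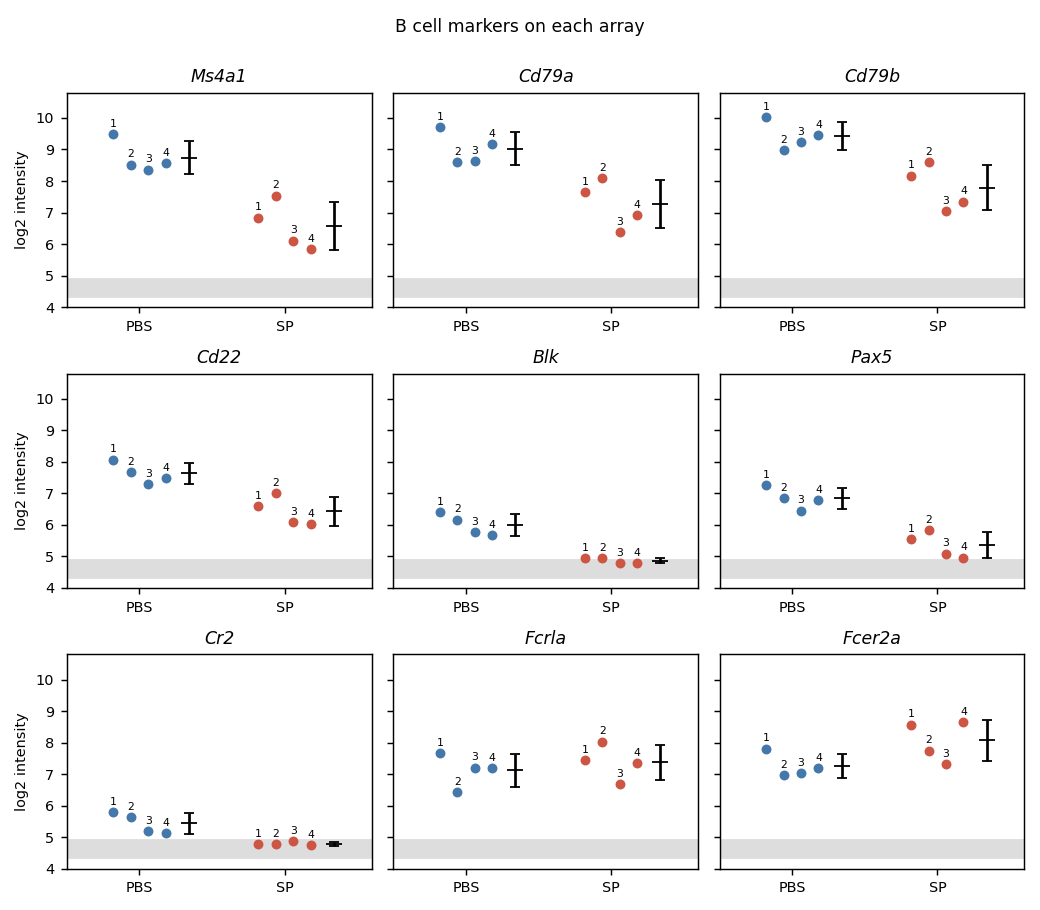
Log2 intensity of the 9 B cell markers on each array (vertical axis) by group (horizontal axis). Numbered points are replicates, the bar beside each group is the mean ± SD (n = 4), and the grey band is the range of 3 Y-linked rows (4.33 to 4.90). SP points lie below all PBS points for 7 genes, and the groups overlap for Fcrla and Fcer2a.

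In counts, 7 of the 9 markers passed an adjusted p of 0.05 as lower in SP, against 22.6% of all rows. At a fall of at least 2-fold the count was 6 of 9, against 11.3% of all rows. With limma treat, which tests for differences beyond 2-fold, 0 of the 9 were called lower, and 3 had an unadjusted p below 0.05. No marker was called higher, at any size or at 2-fold, where the shares of all rows were 21.5% and 6.37%. Every SP sample lay below every PBS sample for 7 of the 9, against 21.8% of all rows, and the reverse held for none, against 27.2%. The median difference of the 9 markers was -1.20, beside 0.10 for all rows. Summed on the linear scale, the 9 markers gave intensities of 1921 to 3586 in the PBS samples and 707 to 1566 in the SP samples.

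How the markers varied among replicates was described next. PBS replicate 1 was the highest PBS sample for all 9 markers. Among SP samples, replicate 2 was the highest for 7 markers, and replicates 3 and 4 were the lowest for 4 and 5. Averaged over all 9 markers, the difference from each gene's own mean was 1.03, 0.32, 0.24 and 0.41 in the PBS samples and -0.28, -0.05, -0.95 and -0.71 in the SP samples. As a description over 8 samples, deviations from the group means correlated with those of the other 8 markers at r = 0.90 to 0.95 for Ms4a1, Cd79a, Cd79b, Pax5 and Cd22. The coefficient was 0.76 for Fcrla, 0.60 for Blk, 0.35 for Fcer2a and 0.31 for Cr2. The values share arrays and their normalization, and Blk and Cr2 are near background in SP.

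**Figure D2:**
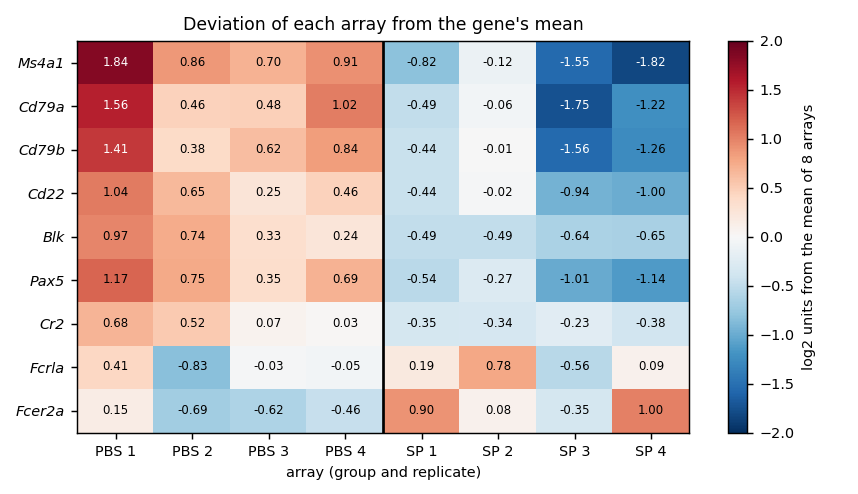
Difference of each array (columns, group and replicate) from the gene's mean over 8 arrays (rows, B cell markers), in log2 units as printed in each cell and by colour. Ms4a1 runs from 1.84 in PBS replicate 1 to -1.82 in SP replicate 4, while Fcer2a is highest in SP replicate 4 (1.0).

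Other genes of the B lineage were taken from 6 lists with 91 genes in all, of which 79 had a matched row. Among these, 26 were called lower and 20 higher in SP, with 20 and 14 of them at least 2-fold. Of all rows 22.6% were lower and 21.5% higher, and 11.3% and 6.37% at 2-fold. Centring the arrays on their medians gave 22 lower and 35 higher. The median difference of the 79 genes was 0.02, beside 0.10 for all rows. The lists contain genes that neutrophils and other cells also transcribe.

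Vpreb3, a chaperone-like relative of the surrogate light chain, fell 4.32-fold (-2.11, adjusted p = 0.000112), and Fcmr, the receptor for IgM, fell 3.90-fold (-1.96, adjusted p = 0.00494). Of 5 genes with a row on the list of immunoglobulin and surrogate light chains, Vpreb3 was called lower and Vpreb2, named after its values were seen, higher (0.45). Of all rows 22.6% were called lower and 21.5% higher. None of the 5 was called higher without PBS replicate 1 or 4 or SP replicate 2. No row was matched to Ighm or to the other 7 immunoglobulin constant region genes of that list, and they were not analysed here.

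The list of 19 surface receptors held 5 genes called lower and 5 higher, beside 22.6% and 21.5% of all rows, and 8 were higher without SP replicate 3. At 2-fold, 4 were lower and 5 higher, beside 11.3% and 6.37% of all rows. Fcmr, given above, is among those lower on this list. Those that rose included Fcgr2b, the inhibitory receptor for IgG that B cells share with myeloid cells (6.76-fold), and Cd40, a receptor of B cells and other antigen-presenting cells (6.27-fold). Fcgr2b read 10.03, 9.10, 9.81 and 9.67 in PBS and 12.40, 12.45, 12.34 and 12.44 in SP. The SP samples were nearly level for Fcgr2b and far above PBS (adjusted p = 1.73e-05 by limma). Tnfrsf13b, which encodes the BAFF and APRIL receptor TACI, rose 2.60-fold, and Cd5 rose 2.37-fold. The Cd5 call was lost without PBS replicate 4 or SP replicate 1 (adjusted p up to 0.0565).

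Of 24 signalling genes of the B cell receptor, 6 were called lower and 8 higher, beside 22.6% and 21.5% of all rows. Among those lower were Bank1, a scaffold protein of B cells (5.69-fold, adjusted p = 0.000341 by limma), and Rasgrp3, which activates Ras downstream of the receptor (4.41-fold). Vav2 (2.61-fold) and the adaptor Blnk (2.09-fold) were also among them. Bank1 read 9.04, 8.42, 8.38 and 8.43 in PBS and 6.38, 6.79, 5.56 and 5.52 in SP. Its SP samples had replicate 2 highest, as most of the markers did, and so did those of Blnk. Rasgrp3 and Vav2 had PBS replicate 2 and SP replicate 4 highest, as did the endothelial gene Kdr. Among those higher were Malt1, a protease of the NF-κB pathway used by many immune receptors (6.40-fold), the adaptor Pik3ap1 (3.63-fold) and the exchange factor Vav1 (3.15-fold).

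Of 16 transcription factors of the B lineage, 10 were called lower and 2 higher, beside 22.6% and 21.5% of all rows. Those lower numbered 7 with the methods' t-test, after quantile normalization, and without PBS replicate 1 or SP replicate 4. Ebf1 fell 3.11-fold (-1.64, adjusted p = 0.00181 by limma), Bach2, a repressor that keeps B cells from becoming plasma cells, 3.05-fold, Foxo1 2.42-fold and Irf4 2.30-fold. Foxo1 too had PBS replicate 2 and SP replicate 4 highest. Pou2af1, the octamer coactivator of B cells, had a narrow call. Its difference was -0.72 (adjusted p = 0.0284 by limma), and the call was lost under 7 of 16 alternatives, among them those without PBS replicate 1 or 4 or SP replicate 1 or 4. Over these alternatives the difference was -0.85 to -0.27 and the adjusted p was up to 0.393. Pou2f2, which encodes OCT2, rose 2.75-fold, and Irf8, a factor of B cells, monocytes and dendritic cells, rose 2.37-fold (adjusted p = 0.0218 by limma). The Irf8 call was lost without PBS replicate 3 or 4 or SP replicate 1 or 2 (adjusted p up to 0.0592).

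Among 9 genes of plasma cells, the antibody-secreting stage, 3 were called lower and 2 higher, beside 22.6% and 21.5% of all rows. Those higher numbered 1 with the methods' t-test or without PBS replicate 4 or SP replicate 1. They numbered 3 without SP replicate 3, 4 with array weights and 5 with centred arrays. Mzb1 fell 2.69-fold, Derl3, a component of protein quality control, 2.53-fold and Sdc1, a surface proteoglycan that epithelium also carries, 2.44-fold. Prdm1, which encodes the plasma cell regulator BLIMP1 and is active in other leukocytes, rose 4.46-fold from 7.71 ± 0.22 to 9.87 ± 0.10 (SD, n = 4). Of 6 ligands for B cell survival and homing, 1 was called lower and 2 higher, beside 22.6% and 21.5% of all rows. Ccl19 rose 4.59-fold and Cxcl13, the chemokine that draws B cells into follicles, 3.59-fold. Il7, named after its values were seen, was lower (-0.56, adjusted p = 0.000763 by limma) and near background in SP (mean 4.88). Tnfsf13b, which encodes the survival factor BAFF, differed by 0.51 (adjusted p = 0.161 by limma) and was called with centred arrays alone (0.79, 0.0304).

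**Figure D3:**
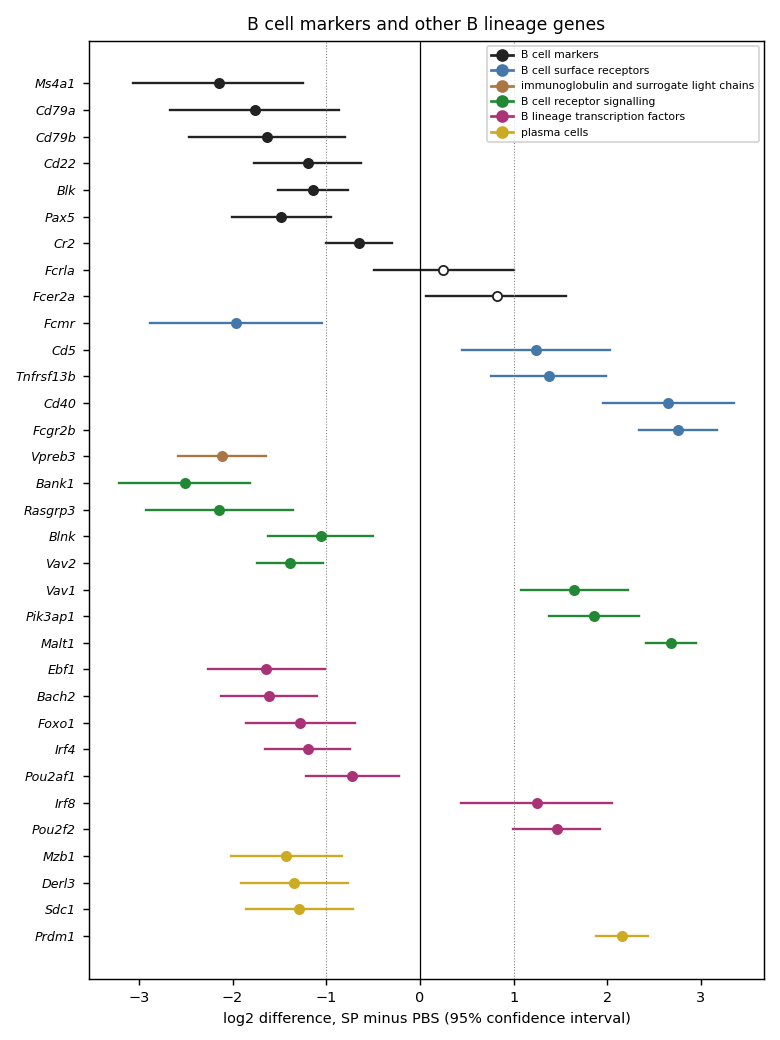
Log2 difference between SP and PBS with its 95% confidence interval by limma (horizontal axis) for the 9 B cell markers and named genes of 5 other B lineage lists (vertical axis). Filled points have an adjusted p of at most 0.05, and dotted lines mark 2-fold. Points run from -2.51 for Bank1 to 2.76 for Fcgr2b, and the 2 open points are Fcrla and Fcer2a.

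Genes with the profile nearest to the mean profile of the 9 markers were sought among 19823 other named genes, by the root mean square distance between profiles centred on their own mean over 8 samples. Fgd2, an exchange factor of antigen-presenting cells, was nearest (0.141 log2 units), followed by Mrps26 (0.155), the adaptor Blnk (0.171), Traf5 (0.182), Zfp81 (0.185), Nup210 (0.192), the lymphoid factor Ikzf3 (0.194) and Mcm2 (0.196). Their differences were between -1.14 for Nup210 and -0.82 for Mcm2. Of the 100 nearest genes, 7 were on the 6 other B lineage lists, which hold 79 of the 19823 genes compared.

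Markers of other cells were set beside these results. Of 14 T cell genes 1 was called lower and 3 higher (5 without SP replicate 3), beside 22.6% and 21.5% of all rows. Their median difference was 0.35, with summed intensities of 775 to 1256 in PBS and 739 to 1616 in SP. Many of these rows were dim, with a list mean of 5.71 ± 0.23 in PBS (SD, n = 4). Leaving out dim rows kept 5 of the 14, with a median difference of 0.41. Rows near background, 4.33 to 4.90 in the Y-linked rows, have little room to fall. Cd2, an adhesion receptor of T, NK and also mouse B cells, fell 3.02-fold. Of 7 genes of plasmacytoid dendritic cells 1 was called lower and 2 higher, beside the same shares of all rows. Among those higher was Bst2, an antiviral membrane protein induced by interferon in many cells, which rose 6.52-fold. Without any 1 of the PBS samples, or without SP replicate 1, 1 of the 7 was called higher. Siglech, a defining marker named after its values were seen, read 5.32 ± 0.15 in PBS and 5.27 ± 0.05 in SP (SD, n = 4). Both are not far above the Y-linked rows. Whether T cell and B cell markers differ in their response was not tested.

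Markers of tissue cells were lower beside the B cell markers. All 8 genes of ciliated epithelium were called at least 2-fold lower in SP, beside 11.3% of all rows. Their median was -2.75, with summed intensities of 7776 to 13191 in PBS and 1207 to 2021 in SP. Of 10 endothelial genes 9 were called lower, beside 22.6% of all rows, with a median of -1.39 and sums of 15394 to 30023 and 5899 to 11049. Endothelial genes called lower numbered 7 without PBS replicate 1 or SP replicate 1. They numbered 8 with the methods' t-test or without PBS replicate 2, and 0 with limma treat. The ciliary motor gene Dnah5 fell 8.31-fold and Kdr, the endothelial receptor for VEGF, 4.15-fold. The 11 neutrophil genes had a median of -0.30, with 3 called lower and none higher, beside 22.6% and 21.5% of all rows. Over the alternatives their median was -0.50 to -0.02 and 0 to 8 were called lower. The count was 8 without SP replicate 3, 1 without PBS replicate 1 or SP replicate 4, and 0 without PBS replicate 3 or 4 or SP replicate 1 or 2. It was also 8 with array weights, 7 after quantile normalization and 0 with centred arrays. With the methods' t-test, array weights or centred arrays, 1 neutrophil gene was called higher. The part of these other cells in the B cell marker result was not tested.

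**Figure D4:**
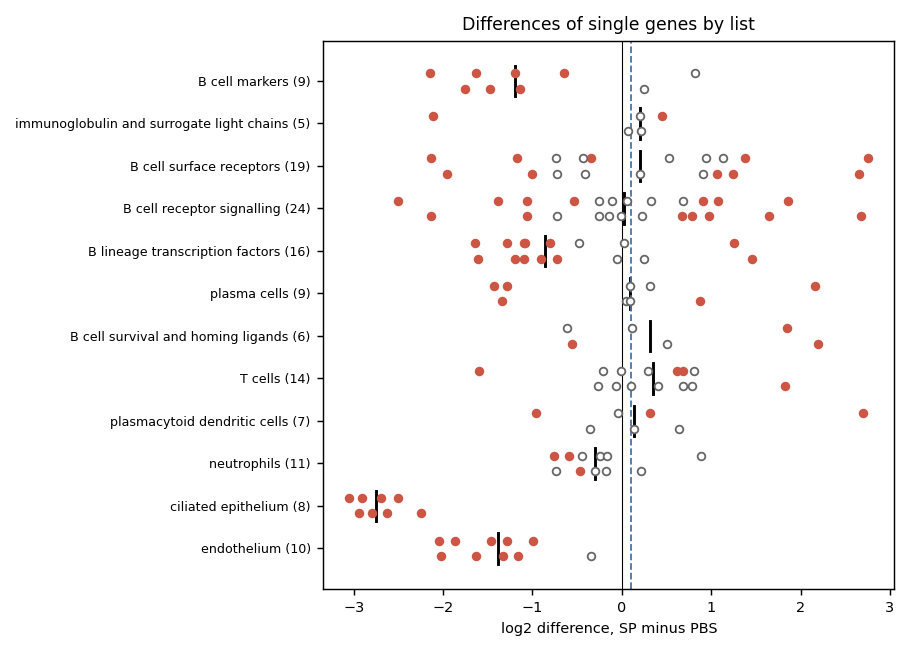
Log2 difference between SP and PBS (horizontal axis) for each gene of the B cell markers and 11 other lists (vertical axis, with the number of genes). Red points passed an adjusted p of 0.05 by limma, open points did not, black bars are list medians, and the dashed line is the median of all rows (0.10). The B cell markers centre at -1.20, ciliated epithelium at -2.75 and T cells, a list dim in PBS (mean 5.71), at 0.35.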

How the data were processed

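Lung neutrophil RNA from 4 PBS and 4 SP samples was read on 1 Mouse Gene 1.1 ST array each, and groups followed the sample titles. The deposited values are log2 intensities that the authors made with RMA background correction and adjustment for probe GC content and sequence. Quantile scaling and a median polish summary followed. The values are relative, for comparing the same row across arrays. The submitters' processing notes name Affymetrix Expression Console, RMA and Partek. Symbols came from RefSeq genes of GRCm38.p6, matched by unversioned accession (19911 of 24625 rows, 80.9%), and no gene listed here had several rows. No row had a missing value.

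SP was compared with PBS by limma 3.58.1 in R 4.3.3 (lmFit, eBayes, two-sided, no covariates) with Benjamini-Hochberg adjustment over all 24625 rows, with calls at an adjusted p of 0.05 and, after the study's own filter, a fold of 2. The fit was first tested on simulated data. Precision is limited by the number of arrays.

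The markers and gene lists were chosen with earlier results of these data known. Named were all markers, up to 6 genes per other list with the largest difference among those called at 2-fold, Ighm, Ebf1, Pou2af1 and Tnfsf13b, and the 8 nearest profiles by each of 2 measures. Some genes that this rule names are not reported here. Genes named outside this rule for context are Vpreb2, Siglech and Il7. Alternatives were the methods' t-test, a prior that is robust and follows the trend, a replicate block, array weights, median centring, quantile normalization, dim rows left out, 1 row per symbol, limma treat, and each sample left out in turn. The methods' t-test stands for the study's one-way ANOVA, which is the same test when PBS and SP are the only groups.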

Additional observations from a re-analysis of the deposited data

How the results depend on the processing

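The 7 markers that fell kept their direction and their call in every alternative in which they were tested, apart from limma treat. With limma treat, which asks for differences significantly above 2-fold, the count was 0 of 9, with 3 at an unadjusted p below 0.05, and the other B lineage genes called numbered 7 in place of 46. At a fall of at least 2-fold the count of markers was 4 to 6 over the other alternatives. It was 4 with centred arrays and with array weights. Leaving out dim rows removed Blk and Cr2, which left 5 markers called. The median difference of the markers was -1.48 to -0.92 over the alternatives. Of the 46 other B lineage genes called, 34 kept call and direction throughout, treat aside. Those called higher numbered 20, and 35 with centred arrays, which moved the median difference of all rows from 0.10 to 0.38 and that of 3 Y-linked rows from 0.18 to 0.46. With the replicate block, 7 markers and 44 other genes were called, and Fcer2a was called higher (0.82, adjusted p = 0.0252). Deviations of same-numbered samples of the groups were not consistently correlated (r = 0.016, 0.030, 0.350 and -0.274). The labels do not say whether the numbers pair the samples, and these values cannot decide it. Signal near background limits Blk and Cr2, whose SP values lie at or near the level of Y-linked rows.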

Other observations

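A second measure of likeness used deviations from the group means, which leave out the difference between SP and PBS. By it the genes nearest to the mean of the 9 B cell markers over 8 samples were Ido1 (r = 0.997), Batf2 (0.990), Gbp8 (0.979), Psmb10 (0.971), Clec2i (0.968), Cd2 (0.967), Ikzf3 (0.962) and Cd226 (0.960). The first 4 are genes that respond to interferon gamma as background knowledge has it, and they rose in SP, by 2.43 log2 units for Ido1 (adjusted p = 0.0134 by limma), 4.30 for Batf2, 2.28 for Gbp8 and 2.26 for Psmb10. Cd2 and Ikzf3, which lymphocytes use, fell. Of the 100 nearest genes by this measure 6 were on the other B lineage lists, which hold 79 of the 19823 genes compared. These values, the highest among 19823 genes over 8 samples that share their normalization, are a description.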
